A study of Mus musculus with 2 samples.

Results

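The genes of antigen presentation were described in accessible chromatin of mouse regulatory T cells. The set held 41 of 21911 protein-coding gene symbols of GENCODE release M21 on mm10. It took every protein-coding symbol that begins with H2-, and added B2m, Tap1, Tap2, Tapbp, Cd74, Ciita and Nlrc5. By symbol, 24 members were class I genes and 9 were class II genes. Another 5 serve class I (B2m, Tap1, Tap2, Tapbp and Nlrc5) and 2 serve class II (Cd74 and Ciita). The last, H2-Ke6, encodes a steroid dehydrogenase and carries its symbol for its place in the major histocompatibility complex (MHC).

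The series held 1 group of 2 ATAC-seq libraries, an assay in which a transposase cuts and tags open DNA. The labels give primary regulatory T cells of strain C57BL/6NJ, with no genetic change or treatment named, unknown age and sex not collected, and they number the libraries 1 and 2 as biological replicates. The donor identifier is the same in the 2 libraries, so the spread between them may be technical. The labels also point to a CD4 T cell differentiation protocol that was not read here. Entry names of the deposited region lists hold "72hrs" and "ASTARR insert", and no source used here says what these mean or whether the lists come from plain ATAC-seq libraries. With no second condition, class I and class II were compared by counts and not by a test, since genes are not replicates.

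MHC class I molecules pair a heavy chain with beta-2 microglobulin and show peptides from inside the cell to CD8 T cells on nearly every nucleated cell. MHC class II molecules show peptides from endosomes to CD4 T cells and are best known from B cells, dendritic cells, macrophages and thymic epithelium. Promoters of both classes share a module, in which a protein complex that contains RFX5 binds the X1 box, CREB-family factors bind the X2 box and NF-Y binds the Y box. The coactivators NLRC5 and CIITA act on class I and class II genes through this module.

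The following promoter sequences are shown because they hold the module in its class I and class II forms, beside a class I gene with no promoter region. They come from the RefSeq promoter table (GRCm38.p6, the mm10 build), which matched 34 of the 41 members in 37 windows of 250 bases before to 50 bases after a start. Cd74, Ciita, H2-Ab1, H2-Q1, H2-T24, Nlrc5 and Tap2 were not matched. Each is the 200 bases just before the RefSeq start, printed 5′ to 3′ on the strand of the gene. Capitals mark TGACG or CGTCA with ATTGG 15 to 25 bases further (X2-Y), GNAAC with ATTGG 20 to 35 bases further (X1-Y), GGG, NN, TT, N and CC in a row (kappaB) and GAAA, NN and GAAA in a row (ISRE, the interferon-stimulated response element), each sought on both strands.
H2-K1 (chr17:34000334-34000533, minus strand): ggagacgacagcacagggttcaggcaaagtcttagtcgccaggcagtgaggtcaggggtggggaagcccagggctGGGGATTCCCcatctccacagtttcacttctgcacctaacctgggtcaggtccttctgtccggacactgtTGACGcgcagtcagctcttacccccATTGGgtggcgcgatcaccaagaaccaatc
H2-D1 (chr17:35262894-35263093, plus strand): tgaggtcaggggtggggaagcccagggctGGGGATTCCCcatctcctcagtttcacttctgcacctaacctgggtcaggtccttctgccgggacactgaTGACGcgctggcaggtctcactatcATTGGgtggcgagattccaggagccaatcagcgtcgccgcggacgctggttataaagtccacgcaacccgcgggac
H2-Q7 (chr17:35438955-35439154, plus strand): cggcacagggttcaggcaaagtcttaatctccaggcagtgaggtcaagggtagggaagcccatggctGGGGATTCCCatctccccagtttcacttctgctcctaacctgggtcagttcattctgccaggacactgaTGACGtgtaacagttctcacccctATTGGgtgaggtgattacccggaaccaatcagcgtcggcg
H2-M3 (chr17:37270034-37270233, plus strand): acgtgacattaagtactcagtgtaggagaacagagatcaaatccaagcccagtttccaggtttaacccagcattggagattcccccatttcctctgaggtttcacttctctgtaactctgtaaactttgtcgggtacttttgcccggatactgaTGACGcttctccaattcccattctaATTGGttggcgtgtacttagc
B2m (chr2:122147487-122147686, plus strand): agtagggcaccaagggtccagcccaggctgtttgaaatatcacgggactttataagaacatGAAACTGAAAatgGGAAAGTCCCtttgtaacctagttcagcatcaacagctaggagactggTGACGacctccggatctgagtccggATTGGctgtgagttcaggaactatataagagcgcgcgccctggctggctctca
H2-Aa (chr17:34287824-34288023, minus strand): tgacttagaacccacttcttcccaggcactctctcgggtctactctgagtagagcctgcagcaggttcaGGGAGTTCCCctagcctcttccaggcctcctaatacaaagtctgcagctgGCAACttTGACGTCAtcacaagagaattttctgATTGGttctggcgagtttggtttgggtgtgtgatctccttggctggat
H2-Eb1 (chr17:34305667-34305866, plus strand): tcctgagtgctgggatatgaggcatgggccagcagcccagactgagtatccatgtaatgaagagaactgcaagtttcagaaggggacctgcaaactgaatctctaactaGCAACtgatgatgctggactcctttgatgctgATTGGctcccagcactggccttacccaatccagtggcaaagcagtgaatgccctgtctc
H2-M10.1 (chr17:36326151-36326350, minus strand): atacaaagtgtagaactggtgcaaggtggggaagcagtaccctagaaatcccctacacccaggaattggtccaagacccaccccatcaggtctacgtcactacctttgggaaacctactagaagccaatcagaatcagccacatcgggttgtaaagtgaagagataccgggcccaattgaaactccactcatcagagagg
In the H2-Aa promoter the capitals of X1-Y and X2-Y share the same ATTGG, and its X2 letters TGACGTCA hold both a TGACG and a CGTCA. H2-M10.1 has no capitals because none of these patterns was found in its window.

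A promoter was counted as accessible where both replicates had a region within 1 kb of any annotated start site. This was so for 28 of the 41 members (68.3%), against 64.4% of all protein-coding genes, so the set as a whole lay near the background. Within the set the classes differed in their counts: all 9 class II genes were accessible, but 12 of 24 class I genes (50%). The 5 genes that serve class I were accessible, as were Cd74 and H2-Ke6. Ciita had a promoter region in replicate 1 alone, and 12 members had none in either replicate. These 12 were H2-T3 and 11 of the 12 H2-M genes, a class I family at the far end of the MHC. Outside the H2-M genes, 11 of 12 class I genes (91.7%) were accessible, so the lower share of class I lay in the H2-M genes. A region seen in the lists does not tell whether it was open in a few cells or in all of them, and RNA was not analysed here.

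**Figure D1:**
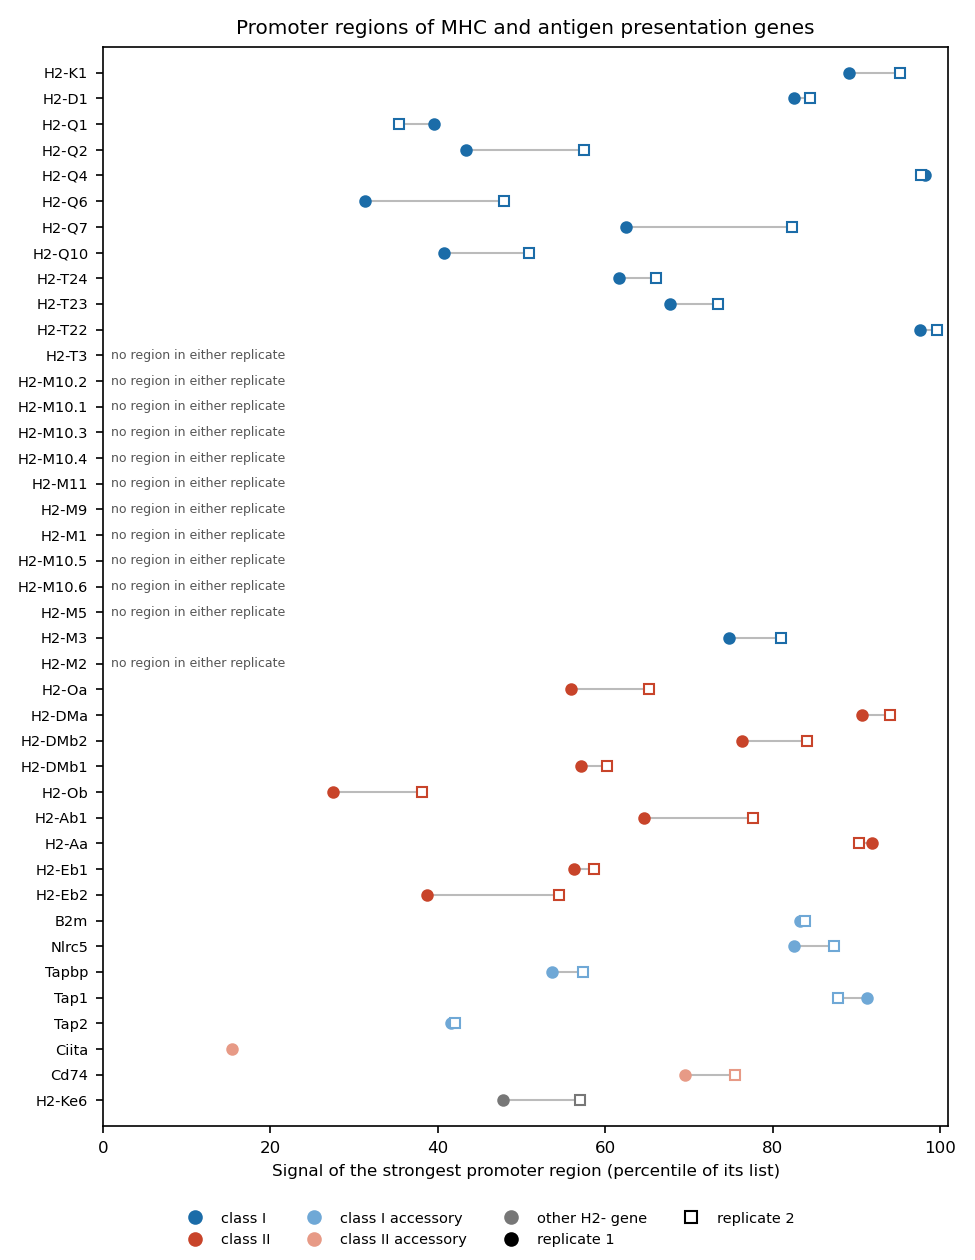
The strongest promoter region of each member is placed by its percentile of signal within the list of replicate 1 (filled circles) and replicate 2 (open squares), with members ordered by class and then by position. Each class II gene has a point in both replicates, while H2-T3 and 11 of the 12 H2-M genes have no region in either replicate.

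The deposited signal of a region has no stated scale, so each value is followed by its percentile among all regions of the same list. Replicate 1 held 68903 regions and replicate 2 held 78262, and 93.2% of the main-chromosome regions of replicate 1 were overlapped by replicate 2, against 81.6% the other way. How many reads each list rests on is unknown. The list of regulatory T cell markers (Foxp3, Il2ra, Ctla4, Ikzf2, Cd4, Cd3e and Cd5) had an accessible promoter at 7 of 7 genes. The share over all protein-coding genes was 64.4%. Foxp3 and Ikzf2 were counted through other annotated starts and were not accessible at their main start.

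Of the class I genes, the classical antigen-presenting molecules H2-K1 and H2-D1 had strong promoter regions. The H2-K1 region at chr17:33998776-34000796, the stretch that contains the sequence printed above, had a signal of 13.1 in replicate 1 (89.1st percentile) and 14.9 in replicate 2 (95.2nd). The H2-D1 region at chr17:35262475-35264096 had 11.6 (82.6th percentile) and 11.7 (84.5th). The -log10 q values, the authors' measure of how surely a region was called, were 214 and 412 at H2-K1 and 225 and 357 at H2-D1. Both promoters were thus high in both lists, with the summit 21 bp upstream and 57 bp downstream of the main start at H2-K1, and 288 and 285 bp downstream at H2-D1. The main start is that of the transcript with the best APPRIS principal rank. At H2-D1 it lies upstream of the RefSeq start. Both H2-D1 summits, at positions 35263018 and 35263015, therefore fall within the printed H2-D1 sequence.

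The nonclassical class I genes of the H2-Q and H2-T groups covered a wide range. H2-Q4 had a signal of 16.5 and 16.2 in replicates 1 and 2 (98.2nd and 97.8th percentiles). H2-T22, a ligand of some gamma-delta T cell receptors, had 16.1 and 18.3 (97.5th and 99.7th), in a region shared with the start of Gm6034. These 2 regions stood above those of H2-K1 and H2-D1 by signal in both replicates. By -log10 q they stood below, with 197 and 279 at H2-Q4 and 90.4 and 148 at H2-T22. H2-T23, the Qa-1 molecule that CD94/NKG2 receptors read, had 8.88 and 9.44 (67.7th and 73.5th). H2-T24 had 8.00 and 8.18 (61.6th and 66.1st). H2-Q7, which encodes a Qa-2 molecule, had 8.12 and 11.2 (62.5th and 82.3rd), the change of 19.8 percentile points being the largest gain from replicate 1 to replicate 2 at any member's main start.

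The weakest class I regions were those of H2-Q1, H2-Q2, H2-Q6 and H2-Q10, a secreted class I molecule known from liver. H2-Q1 had a signal of 5.49 and 4.67 (39.6th and 35.4th percentiles). H2-Q6 had 4.77 and 5.84 (31.3rd and 48.0th). H2-Q2 had 5.88 and 6.97 (43.4th and 57.4th), and H2-Q10 had 5.58 and 6.17 (40.7th and 50.9th). In replicate 1 these 4 were the class I regions lowest in rank, and in replicate 2 as well. Of these 4, H2-Q1, H2-Q6 and H2-Q10 were also not counted under at least 1 stricter setting.

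H2-M3, which presents peptides that begin with N-formyl methionine, was the only H2-M gene with a promoter region. Its region at chr17:37269916-37271210 had a signal of 10.03 and 10.9 (74.8th and 81.0th percentiles), with summits 41 and 8 bp downstream of the start. The other H2-M genes include the H2-M10 family, H2-M1, H2-M9 and H2-M11, known from sensory neurons of the vomeronasal organ. None of these 9, nor H2-M2 or H2-M5, had a promoter region, and 8 of the 11 had no region at all within 10 kb of the gene. The exceptions were H2-M10.1, H2-M10.6 and H2-M5, with 1, 1 and 2 replicated regions. The region beside H2-M10.1, at chr17:36314849-36315975, was strong, with a signal of 13.7 and 15.8 (91.1st and 97th percentiles), and lay 10605 bp downstream of its start in replicate 1. H2-T3, the TL antigen of intestinal epithelium, had no promoter region but 3 replicated regions in its locus, the strongest 3425 bp upstream (88.2nd and 90.1st percentiles).

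The class II genes were accessible without exception, at lower ranks than the strongest class I genes. H2-Aa and H2-Ab1 encode the alpha and beta chains of the I-A molecule. H2-Aa, at chr17:34287651-34288137, had a signal of 13.9 and 13.3 (91.9th and 90.3rd percentiles) with the summit 98 and 96 bp upstream of the main start, just before the X1-Y and X2-Y matches of its printed promoter. H2-Ab1, at chr17:34262947-34263597, had 8.43 and 10.21 (64.6th and 77.7th). H2-Eb1, a beta chain of the I-E molecule, had 7.32 and 7.15 (56.3rd and 58.7th), and H2-Eb2 had 5.44 and 6.605 (38.7th and 54.5th). Among these 4 genes H2-Aa was highest and H2-Eb2 lowest in both replicates.

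H2-DM exchanges the placeholder peptide of class II molecules for antigenic peptides, and H2-O holds H2-DM back. Of the H2-DM beta chain genes, H2-DMb1 had a signal of 7.40 and 7.34 (57.1st and 60.3rd percentiles). H2-DMb2 had 7.09 and 6.65 (54.4th and 54.7th) at its main start and a stronger region at a start further upstream, with 10.3 and 11.6 (76.3rd and 84.1st). The H2-DM alpha chain gene H2-DMa was reached at its main start only by the edge of a 4123 bp region whose summit lay 3327 bp upstream. That summit, at position 34119505, lay beside the annotated H2-DMa starts at 34119541 and 34119588. A start of Brd2, a bromodomain gene, also lay in or within 1 kb of the region. That region had 5.54 and 5.64 (40.5th and 45.8th). A separate and stronger region, chr17:34135299-34136018, covered further annotated starts of H2-DMa, with 13.5 and 14.4 (90.7th and 94.0th). Which of the 2 stretches serves H2-DMa was not tested.

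The H2-O chain genes had H2-Oa at 7.24 and 8.07 (55.9th and 65.3rd percentiles) and H2-Ob at 4.52 and 4.87 (27.5th and 38.2nd). H2-Ob thus had the lowest main-start region of the class II genes by signal in both replicates. By -log10 q the lowest was H2-Eb2 in replicate 1, with 14.4, and H2-DMb1 in replicate 2, with 23.6, against 15.5 and 28.5 at H2-Ob. A far stronger region stood 3759 bp upstream of H2-Ob, at chr17:34234825-34235478, with a signal of 15.4 and 15.6 (96.1st and 96.8th).

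The genes that serve class I ranged widely by signal, from the 33.1st percentile at the Tapbp main start to the 91.3rd at Tap1 in replicate 1. B2m, which encodes beta-2 microglobulin, had a signal of 11.7 and 11.6 (83.2nd and 83.9th percentiles) in a 1928 bp region of replicate 1, chr2:122147316-122149243. Tap1 and Tap2 encode the peptide transporter of the endoplasmic reticulum. Tap1 had 13.7 and 12.6 (91.3rd and 87.9th), in a region that also covers the start of the immunoproteasome gene Psmb9, with the summit 114 bp upstream of Tap1 in both replicates. Tap2 had 5.72 and 5.24 (41.5th and 42.0th) across 3075 bp. Tapbp encodes tapasin, which joins the transporter to class I molecules. It had 4.95 and 5.04 (33.1st and 40.0th) at its main start and 6.97 and 6.95 (53.7th and 57.3rd) at an upstream start, which lies in a region shared with Zbtb22. Tap1 ranked far above Tap2 in both replicates, although the genes are neighbours.

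The 2 coactivator genes differed. Nlrc5 had no region at its main start at chr8 position 94472763, and a strong one, chr8:94433619-94434663, at an upstream start, its summit 38455 bp before the main start in replicate 1, with 11.6 and 12.4 (82.5th and 87.3rd percentiles). Ciita is known for alternative promoters used in different cell types, and 8 start sites are annotated. None of its starts at 10480059 to 10480164 or at 10488178 to 10488279 on chromosome 16 had a region in either replicate. The 3 starts from 10489746 to 10489783 had a weak one in replicate 1 alone, with a signal of 3.58 (15.4th percentile) and a -log10 q of 3.95. Cd74, the invariant chain that escorts class II molecules, had 9.18 and 9.80 (69.5th and 75.5th), by signal above 8 of the 9 class II main-start regions in replicate 1 and 7 of 9 in replicate 2.

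**Figure D2:**
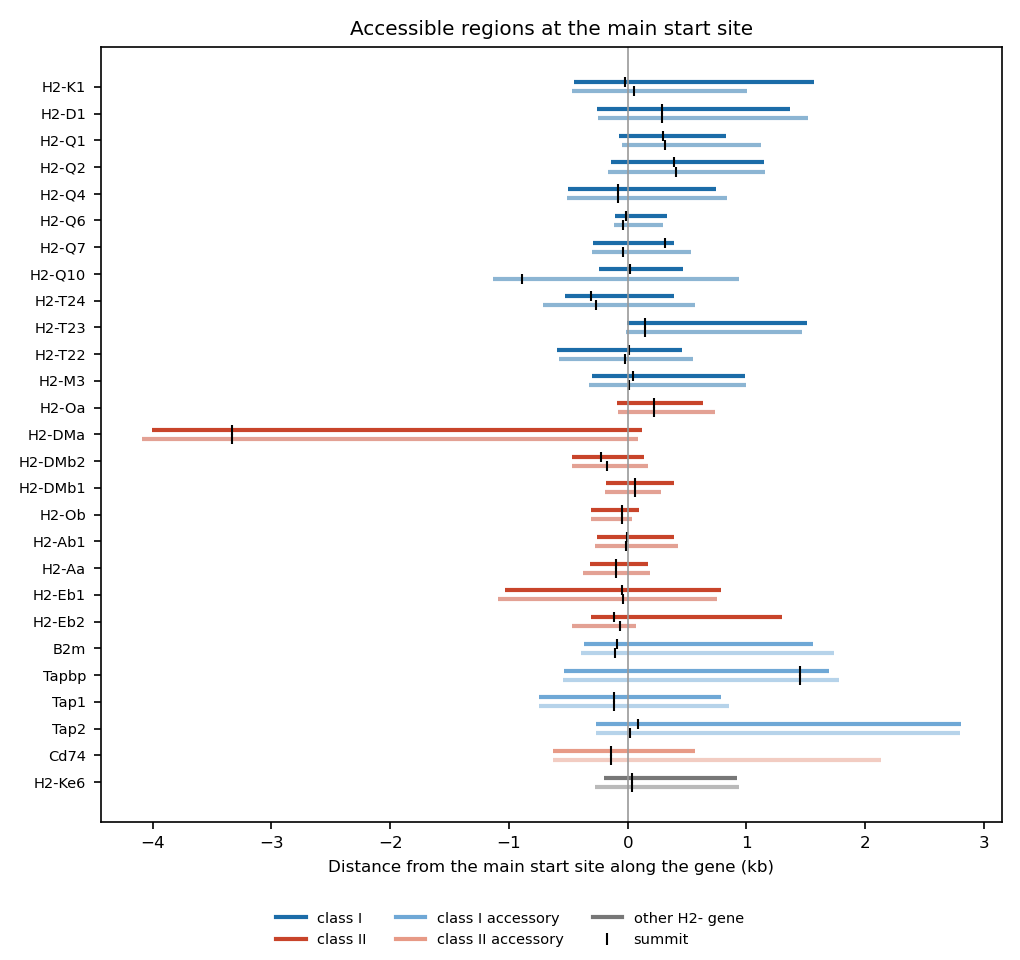
For each member with a region at the main start in both replicates, bars give the region's extent in replicate 1 (upper, full colour) and replicate 2 (lower, pale), in kb along the gene from the main start, and black ticks give summits. Summits lie close to the start except at H2-DMa, 3327 bp upstream, at Tapbp, 1452 and 1451 bp downstream, and at H2-Q10 in replicate 2, 891 bp upstream.

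At the main start alone, 27 of 41 members were accessible, against 60.0% of all protein-coding genes. The median percentile of signal at those regions was 65.1 for class I and 55.9 for class II in replicate 1, and 77.3 and 58.7 in replicate 2. All protein-coding genes with such a region had medians of 81.5 and 83.1. By -log10 q the medians were 78.1 for class I and 74.5 for class II in replicate 1, 81.6 and 77.5 in replicate 2, and 87.3 and 88.8 for all genes. Accessible class I and class II promoters thus overlapped in rank, and both medians were below that of all genes in both replicates. At 23 of the 27 main starts the percentile was higher in replicate 2. The exceptions were H2-Q1, H2-Q4, H2-Aa and Tap1. This count was not taken over all protein-coding genes, so it is not read as a trait of the members. The median signal of the whole list was 6.57 in replicate 1 and 6.06 in replicate 2. Of the 23, B2m, Tap2, H2-Eb1, H2-DMb1 and H2-DMb2 had a lower signal in replicate 2 despite the higher percentile, and the rest a higher one.

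Accessible regions around the genes followed another order. A locus was taken as a gene with 10 kb on each side, and a replicated region as a region of replicate 1 that replicate 2 overlaps. At least 1 replicated region was present in 33 of 41 loci, against 76.3% of all protein-coding genes. Class II loci held a mean of 4.11 replicated regions (median 4, from 2 to 7), class I loci 1.5 (median 1, from 0 to 5) and all protein-coding genes 3.05 (median 2). The replicates taken alone gave 4.44 and 4.89 for class II and 1.58 in each for class I. Per 100 kb of locus, class II had 13.4 replicated regions, class I 6.14, class I outside the H2-M genes 10.11, the H2-M genes 1.79 and all genes 4.43. Counted per gene, shared regions included, class II loci therefore held more regions than class I loci also without the H2-M genes. The class I mean was then 2.58.

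Neighbouring loci overlap, so a region can count for several genes. Counted once, replicate 1 had 89 regions in member loci, of which 84 were replicated and 20 lay in the loci of several members. In replicate 1, 32 distinct regions lay in class I loci, 20 of them away from class I promoters, and 26 lay in class II loci, 12 of them away from class II promoters. Of these, 30 in the loci of the 24 class I genes and 24 in those of the 9 class II genes were replicated. By gene, the most replicated regions were at Nlrc5 with 9, H2-Ob with 7 and H2-DMa with 6, followed by H2-DMb1, Tap2, H2-Ab1, H2-T24 and H2-T23 with 5 each. These counts are not scaled by length, and the Nlrc5 locus was the longest, at 112.9 kb against a median of 24.8 kb over all members. Of the 9 at Nlrc5, 6 had summits in introns. The loci of H2-Ob and H2-Ab1 share 5 regions, so their counts are not independent.

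**Figure D3:**
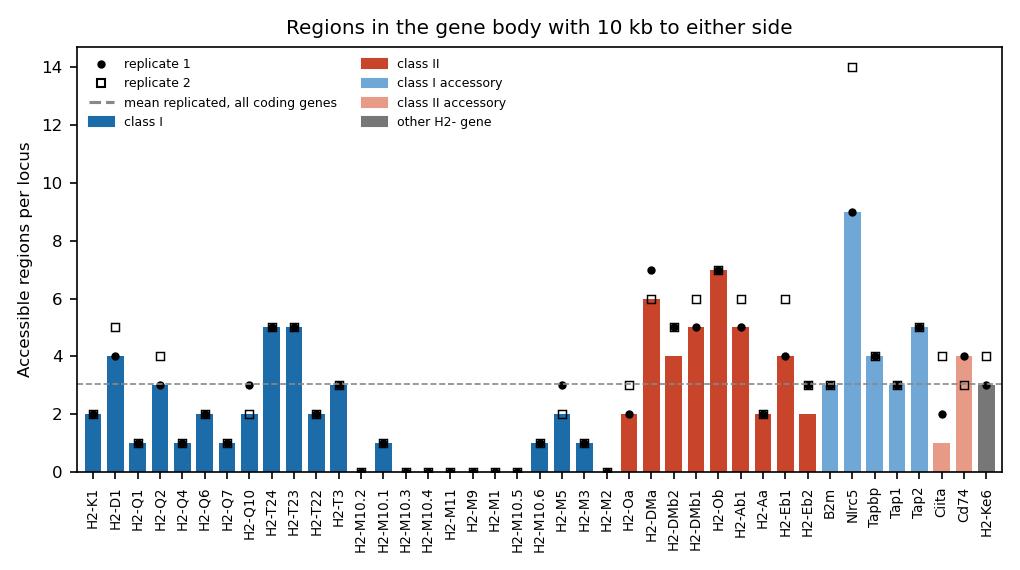
Bars give replicated regions in each member's locus (the gene with 10 kb on each side), coloured by class, circles and squares give the counts of replicates 1 and 2, and the dashed line is the mean over all protein-coding genes (3.05). Class II loci lie between 2 and 7, and 8 class I loci are at 0.

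Several strong regions near members of the class II stretch lay away from their promoters. Beside the region upstream of H2-Ob, a region downstream of Tap2, in the locus of that class I accessory gene alone, at chr17:34218359-34219360 had a signal of 14.8 and 15.5 (94.8th and 96.5th percentiles). A region 9405 bp downstream of the H2-Oa start, at chr17:34101421-34102109, had 12.5 and 12.3 (86.8th and 86.9th). Past the end of H2-Eb2, chr17:34347642-34348206 had 12.3 and 12.5 (85.7th and 87.5th). Each of these 4 regions outranked the main-start region of its nearest member in both replicates, by signal and by -log10 q. Outside chromosome 17, a region 9616 bp upstream of B2m in replicate 1 had 13.0 and 13.9 (88.9th and 92.3rd), above that of the B2m promoter by signal. By -log10 q it was below, with 84.8 and 142 against 214 and 314 at the promoter. These regions were named after their values were seen.

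Along chromosome 17, the stretch from H2-Oa to H2-Eb2 held 31 replicated regions in 0.249 Mb, or 124 per Mb. The stretch from Tapbp to H2-Ke6, which holds H2-K1, was denser, with 15 replicated regions in 0.112 Mb, or 134 per Mb. The stretch from H2-D1 to H2-Q10 held 56.6 per Mb, that from H2-T24 to H2-T3 70.4, and that from H2-M10.2 to H2-M2 25.01. The whole MHC from Tapbp to H2-M2 had 72.0 and chromosomes 1 to 19, X and Y together 24.2. Parts of the MHC with no member also ranked high, at 91.2 per Mb between H2-Eb2 and H2-D1 and 104 between H2-Q10 and H2-T24. The high density was therefore shared with other genes of the MHC, and the stretch of the H2-M genes was near the genome's value.

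**Figure D4:**
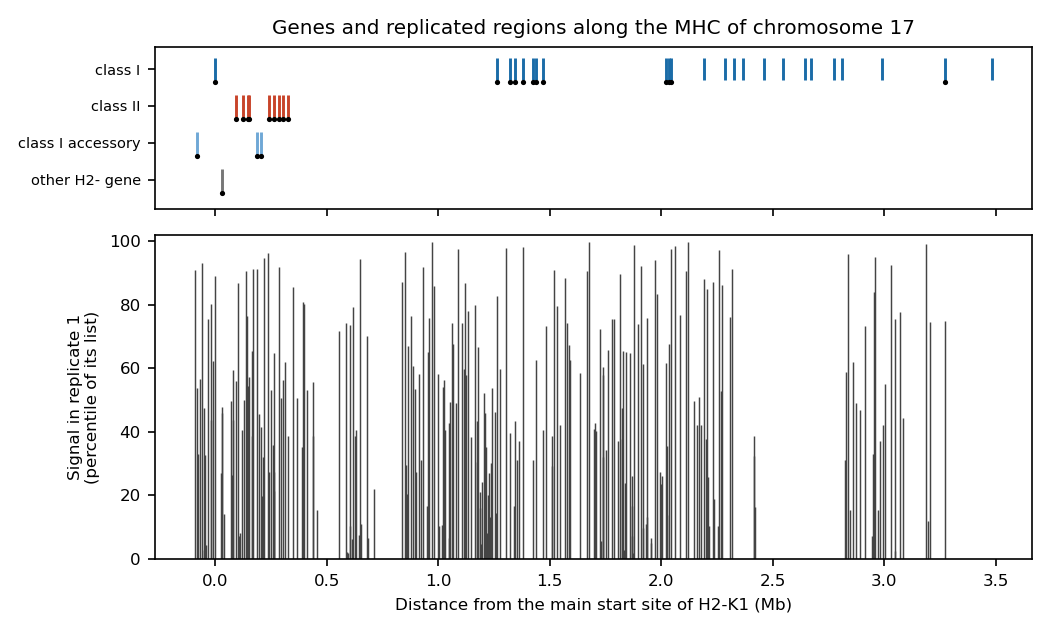
Upper panel, main start sites of the members on chromosome 17 by class, with a dot under each whose promoter was accessible in both replicates. Lower panel, replicated regions at their summits, with height giving the percentile of signal in replicate 1, both against distance in Mb from the H2-K1 main start. Regions thin out where the H2-M genes lie, 25.01 per Mb against 72.0 for the whole MHC.

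The promoter sequences were then compared, which the choice of members did not use. X2-Y was found in 259 of 32851 RefSeq promoter windows (0.788%). Among matched members it stood in H2-K1, H2-D1, H2-Q7, H2-M3, B2m and H2-Aa, with 18 to 21 bases between the parts. That is 4 of 22 matched class I genes, each accessible, and 0 of the 12 class I genes without an accessible promoter. H2-M3 thus had both the only promoter region and the only X2-Y match of the H2-M genes. ATTGG by itself, part of X2-Y and X1-Y, stood in 37.4% of all windows, in 19 of 22 class I genes and in all 8 matched class II genes. TGACG by itself, also part of X2-Y, stood in 20.8% of all windows, in 11 of 22 class I genes and in 1 of 8 matched class II genes. Of the 10 matched class I genes with an accessible promoter, 6 had TGACG and 9 had ATTGG. Of the 12 without one, 5 had TGACG and 10 had ATTGG. H2-M10.1, among these 12, held both parts but not in the order and spacing of X2-Y.

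X1-Y was added to the search after the sequences had been read, so its matches in members are no independent support. It was found in 6 of the 8 matched class II genes, with 25 to 28 bases between the parts, and in 2.67% of all windows. The 6 were H2-Oa, H2-DMb1, H2-Ob, H2-Aa, H2-Eb1 and H2-Eb2. Among class I genes it stood in H2-M10.4 and H2-M2, which had no promoter region. These 2 matches were placed otherwise than those of class II. The H2-M10.4 match lay past the start, at positions 4 to 42, and the H2-M2 match on the opposite strand. The 6 class II matches were all on the strand of the gene and before the start.

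The kappaB pattern, named for the NF-kappaB family, stood in 4.79% of all windows. It was found in H2-K1, H2-D1, H2-Q4, H2-Q6 and H2-Q7 of class I, all accessible, in H2-Oa and H2-Aa of class II, and in B2m. The ISRE, bound by interferon regulatory factors, stood in 3.44% of all windows and in H2-T23, H2-T22 and B2m. TTCNNNGAA (GAS, the gamma-interferon activated site) stood in 8.30% of all windows, in 2 class I genes (H2-M11 and H2-M3) and 1 class II gene (H2-DMb2). B2m was the only matched member with X2-Y, kappaB and ISRE together, as its printed sequence shows. A match describes letters in a window and not binding, and a window without a match says nothing of the factor.

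**Figure D5:**
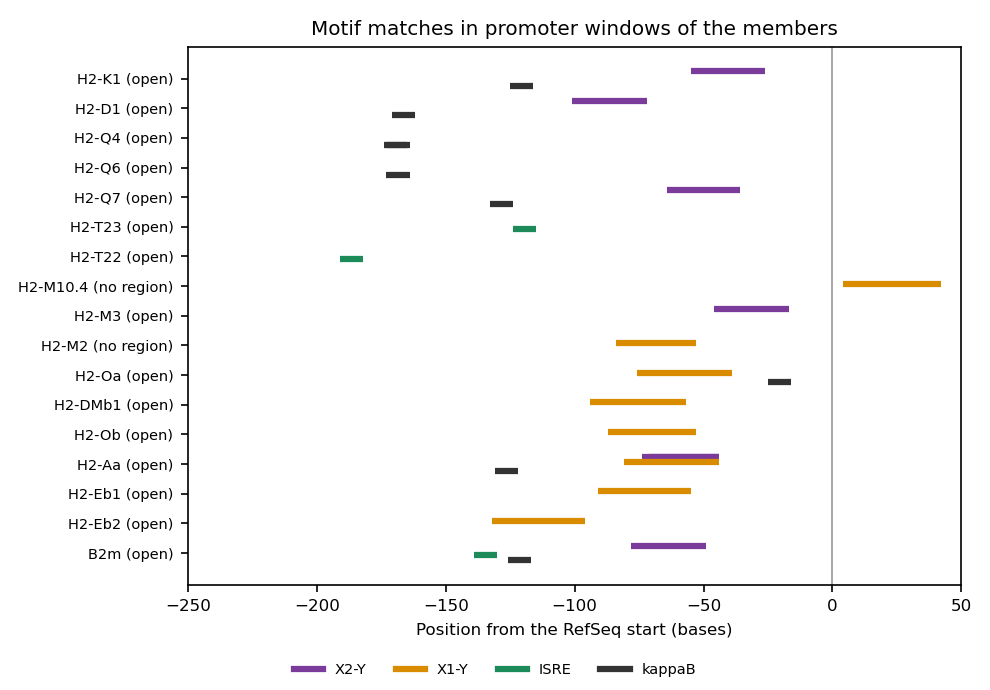
Positions of X2-Y, X1-Y, ISRE and kappaB matches in bases from the RefSeq start, for each member with a match (for H2-K1, 1 of its RefSeq windows is drawn). All class I genes with X2-Y, ISRE or kappaB are accessible, and the 2 class I genes with X1-Y, H2-M10.4 and H2-M2, have no region.

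Base composition also differed between the groups. The median GC content of the windows was 57.0% for accessible class I genes, 48.0% for the other class I genes, 49.7% for class II and 52.7% for all promoters. The median ratio of observed to expected CpG was 0.510, 0.147, 0.158 and 0.384 in the same order. By median, class II promoters were thus accessible at a CpG ratio close to that of the class I genes with no promoter region. This median rests on 9 windows of 8 genes, without H2-Ab1, and did not hold for each gene. The H2-DMa window at its main start had a ratio of 0.731 and a GC content of 73.0%, the highest of all member windows. H2-Eb1, with a ratio of 0.00, and H2-Eb2, with 0.045, were at the low end. A second H2-DMa window also had 0.00, but it overlapped no region in either replicate.

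Class I genes are near copies of each other, and a read from a repeated stretch has no single place. Of all 50-base words within 1 kb of the main start, a median of 4.30% recurred elsewhere in the genome for class I and 2.92% for class II, against 0.00% over all protein-coding genes. The values were 57.2% at H2-Q6, 53.3% at H2-Q7, 46.1% at H2-T23 and 24.3% at H2-T22, so signals of these genes are uncertain. The class I genes without a promoter region had a median of 1.79% and at most 12.1%, lower than the 9.43% of the accessible ones. How reads with several places were treated is not stated in any source used here.

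Other genes of the pathway were accessible at their promoters throughout. This held for 10 of 10 genes of class I processing and loading, such as Psmb8, Psmb9, Calr and Erap1, for 3 of 3 matched genes of class II processing (Ctss, Ctsl and Lgmn), and for the MHC-like genes Cd1d1 and Mr1. It also held for the 10 regulators reported here, among them Rfx5, Rfxap and Rfxank of the X1-box complex, Nfya, Nfyb and Nfyc of NF-Y, and Irf1. These counts stand beside the 64.4% of all protein-coding genes. Ifi30 and Cd1d2 were not matched as protein-coding symbols.

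Cells that present antigen on class II were checked by their markers. Of the 7 B cell markers reported here, Cd79b, Pax5 and Cr2 had a promoter region in both replicates and Blk in replicate 2 alone, and Ms4a1, Cd79a and Fcer2a had none. Ms4a1, the CD20 gene, had 0 replicated regions in its locus. Of 12 markers of dendritic cells and macrophages, Flt3, Zbtb46, Cd14 and Spi1 had a promoter region in both replicates, and the other 8 had none. Itgax, the CD11c gene, had 0 replicated regions in its locus. Pax5 and Spi1 were counted through other annotated starts and were not accessible at their main start. Summed over the genes reported, B cell loci held 24 replicated regions and dendritic cell and macrophage loci 34. The 7 regulatory T cell markers held 68. Over all protein-coding genes, the mean was 3.05 replicated regions per locus and 64.4% had an accessible promoter. The part of such cells in the class II regions was not tested.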

How the data were processed

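ATAC-seq of 2 libraries, labelled biological replicates 1 and 2 of 1 group, was used. Per the file headers, each region list was made from the alignments of its own library on mm10. No source used here names the aligner, the peak caller or how transposase offsets were treated, and a signal track was not used here. The deposited signal and the deposited -log10 q of each region are the authors' values. They were ranked within a list. The lists hold no counts, so depth is unknown and no interval is given.

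Regions were compared with GENCODE M21 using Python 3.11.15, numpy 2.4.6, pandas 2.3.3 and numba 0.67.0. A promoter was 1 kb to either side of any start site, a locus the gene with 10 kb on each side, and the minimum overlap 1 bp. Models with the same symbol were pooled. The members, gene lists and motifs were chosen with earlier results of these data known. Genes named were all class II genes, H2-K1, H2-D1, the 7 genes that serve either class, other class I genes by their promoter calls, the members with the most regions, and other pathway genes where few differed. The H2-M genes named for their neighbouring regions were chosen after their values were seen. Some genes of the marker and regulator lists are not reported here. Counting of accessible promoters and the X2-Y search were tested on simulated data. The searches for the other motifs were not tested in this way. For promoters, 11 other settings and 2 more chosen after seeing the data were run, and 9 for loci.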

Additional observations from a re-analysis of the deposited data

How the results depend on the processing

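The number of members with an accessible promoter stayed within 24 to 29 over 13 alternatives, with 10 to 12 class I genes and 8 or 9 class II genes. H2-Q1 was lost in both lists of the 50000 strongest entries, H2-Q6 in that by -log10 q, and H2-Q10, H2-Eb2 and Cd74 with a reciprocal overlap of 50%. Nlrc5 was lost at the main start, and H2-DMa, Tapbp and H2-Q10 where the summit had to lie within 500 bp of it. The 12 class I genes without a promoter region gained none.

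Mean replicated regions per locus moved more. With the 50000 strongest by signal they were 2.00 for all members, 1.08 for class I and 3.56 for class II. With the 50000 strongest by -log10 q they were 2.27 for all members and 1.21 for class I, and with 50% reciprocal overlap 2.34, 1.46 and 3.67. The gene body alone gave 1.24, 0.50 and 1.89, and 50 kb to either side 8.61, 5.67 and 13.1. Leaving out a replicate gave 2.71 to 2.98, 1.58 in both cases and 4.44 to 4.89. These shifts follow from shorter lists, stricter overlap or other windows. Over all protein-coding genes the mean was 2.065 with the gene body alone and 6.85 with 50 kb to either side. Class II was thus below all genes with the gene body alone. With 50 kb the members together were above all genes, and with 10 kb they were below. Class II stayed above class I by 1.39 to 7.44 regions, and by 43.1 to 58.3 percentage points at promoters. Without the H2-M genes the promoter difference was 5.56 to 25 points, on 12 and 9 genes. No paired analysis was possible because there was 1 group. The unknown depth limits what an absent region means.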

Other observations

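H2- symbols that the annotation does not class as protein-coding were outside the set, and their values were seen before they were named. H2-T10, annotated as a polymorphic pseudogene and a close relative of H2-T22, had a start region with a signal of 19.05 and 17.2 (99.8th and 99.0th percentiles), shared with Gm19684. By signal this stood above the main-start region of every class I member in replicate 1, and below that of H2-T22 in replicate 2. Recurring words were not counted for symbols outside the set, so their signals may be as uncertain as that of H2-T22. H2-T-ps had 13.5 and 11.9 (90.6th and 85.4th). H2-K2 had 11.1 and 10.5 (80.2nd and 78.9th), and H2-Bl had 10.4 and 11.8 (76.8th and 84.8th). The regions of H2-Pb, H2-Q3 and H2-M6-ps were weak, the strongest of them at the 37th and 29th percentiles.

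H2-Ea-ps, the locus of the I-E alpha chain, which C57BL/6 mice do not express, had no region at its start in either replicate. It was unlike the 9 protein-coding class II genes in this. The strong region past the end of H2-Eb2, chr17:34347642-34348206, lies beyond the start of H2-Ea-ps at position 34344645. H2-Pa, H2-Q5 and H2-M10.5-ps1 had no region at their starts either.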
